A study of Mus musculus with 35 samples.

Results

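The comparison described here is how the transcriptional difference between tumor cells labelled *Smad4* on and *Smad4* off in the pancreas changed from day 7 to day 14. It used the 10 primary tumor libraries of the 35 in the series, and for each gene took the on-against-off log2 fold change on day 14 minus that on day 7, referred to as the interaction. A value above 0 means that the difference labelled on minus labelled off was larger, or less negative, on day 14. Of the 53465 genes in the count table, 15093 had enough reads to be tested.

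The cells came from KC-shSmad4 mice, in which *Ptf1a*-Cre, active in the pancreatic lineage, switches on an oncogene together with the reverse tetracycline transactivator rtTA3 and the red reporter mKate2, and which carry a doxycycline (Dox)-inducible, GFP-linked shRNA against *Smad4*. Tumor-derived cells of this genotype were injected into the tail of the pancreas of nude mice kept on Dox chow, and after 4 weeks Dox was either withdrawn or continued. All 10 libraries therefore share the oncogene, the shRNA transgene and an earlier period on Dox, and the host, which lacks a thymus and hence mature T cells, keeps its other immune cells. Tumor cells were sorted for mKate2 on day 7 or day 14 and profiled by poly(A) RNA-seq with 75-bp single-end reads. Which tumor-derived line or shRNA each mouse received is not given in the labels.

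The groups are called here by their labels. Day 7 OFF holds 3 libraries, day 7 ON 2, day 14 OFF 2 and day 14 ON 3, where OFF stands for continued Dox and silenced *Smad4* and ON for Dox withdrawal and restored *Smad4* as labelled. Each library carries a mouse number, but the labels do not say whether mice shared a litter, a surgery day or a sort, so the P values measure the spread between these libraries alone. Libraries held 12200163 to 32195795 counts, and both day 14 OFF libraries were deeper than the other 8. Levels are given as CPM, counts scaled to library size. On a log2 scale they correlated within groups at Pearson's r of 0.973 to 0.991. Between labels r was 0.961 to 0.969 on day 7 and 0.966 to 0.971 on day 14. Between days it was 0.972 to 0.982 in labelled off and 0.962 to 0.975 in labelled on, which overlaps the range within groups. Day 7 ON and day 14 OFF also overlapped it, at 0.971 to 0.975, and day 7 OFF and day 14 ON were at 0.954 to 0.961. The ductal genes *Krt19*, at 528 to 1988 CPM, and *Epcam*, at 87.9 to 220.0 CPM, were present in every library. Of the T cell markers, *Cd3e* was at 0 in all 10, *Cd3g* at 0 to 0.119 CPM and *Trac* at 0 to 1.37 CPM. The pan-leukocyte gene *Ptprc* was at 2.30 to 5.42 CPM. Among macrophage and monocyte markers, *Cd14* was at 53.7 to 195 CPM and *Lyz2* at 17.7 to 71.5 CPM.

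SMAD4 is the common partner of the receptor-activated SMADs. TGFβ and activins bind serine/threonine kinase receptors that phosphorylate SMAD2 and SMAD3, which then enter the nucleus with SMAD4 and switch genes on or off together with other transcription factors. In normal epithelium the pathway restrains the cell cycle, and in pancreatic carcinoma *SMAD4* is one of the genes most often lost. Time matters for such a response, because direct targets can move within hours while differentiation, growth arrest or adaptation may need days.

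*Smad4* mRNA ran against the labels on both days. *Smad4* was at 105, 115 and 94.6 CPM in day 7 OFF, 22.6 and 19.9 CPM in day 7 ON, 100.2 and 110.0 CPM in day 14 OFF and 19.4, 22.5 and 21.8 CPM in day 14 ON. Every library labelled on lay below every library labelled off, with a day 7 response of -2.30 (adjusted P = 1.49e-05) and a day 14 response of -2.31 (adjusted P = 1.19e-05) in log2. The interaction for *Smad4* was -0.0059 (SE 0.16, adjusted P = 0.993), so a difference between days in the *Smad4* response was not detected. The direction goes against what the label says, and whether the on and off labels are exchanged in the deposited columns was not tested. With exchanged labels every response and interaction given here would keep its size and change its sign, and the highest values would be the lowest. Libraries are therefore called labelled on and labelled off throughout, and fold changes compare the former with the latter.

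Few single genes passed the thresholds for the interaction, which were a difference of more than 2-fold together with an adjusted P value of less than 0.05 from edgeR's quasi-likelihood test. The larger group was lower: 8 genes (0.053% of those tested) had a response that was lower on day 14 than on day 7, among them *Egr2*, *Sgk1*, *Il10*, *Hc*, *Cirbp*, *Smg6* and *Apcdd1*. Only 1 gene (0.00663%), *Tubb3*, had a response that was higher. At an unadjusted P value under 0.05 there were 1235 genes above 0 (8.18%) and 1076 below (7.13%), and the median interaction over all genes was 0.042. Whatever the P value, 8210 interactions were above 0 and 6883 below. These are the backgrounds of the counts given for gene lists further on. DESeq2, the tool of the study, called 51 genes higher (0.377% of the 13514 with an adjusted P value) and 152 lower (1.12%), all 9 above among them. Each count rests on few libraries. With 1 library left out, edgeR called 0 genes without either day 14 OFF library, 2 and 29 without day 7 ON library 1 and 2, 9, 22 and 8 without day 7 OFF library 1, 2 and 3, and 5, 1 and 5 without day 14 ON library 1, 2 and 3. All 9 genes kept their direction in these 10 fits, and *Egr2* was called in 8 of them, *Il10* and *Sgk1* in 5, *Tubb3* in 4, *Apcdd1*, *Cirbp* and *Smg6* in 3 and *Hc* in 2. With all libraries thinned to the depth of the smallest, 10 genes were called, 7 of them shared.

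The single-day responses give the scale of these differences. On day 7, 361 genes were higher in labelled on (2.39%) and 127 lower (0.841%), and on day 14 the counts were 366 (2.42%) and 112 (0.742%). The responses of the 2 days, which share no library, correlated across the 15093 genes at Pearson's r of 0.45 and Spearman's rho of 0.39, a description over genes that are not independent. Of the 820 genes called on either day, 145 were called on both in the same direction and 1 in opposite directions. Another 342 were called on day 7 only, 269 of them with the same sign on day 14, and 332 on day 14 only, 308 of them with the same sign on day 7. A call on 1 day alone thus does not by itself show a difference between days. The interaction test was passed by 4 of the 820, against 9 of all 15093 genes, and it uses the same libraries as the single-day tests.

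**Figure D1:**
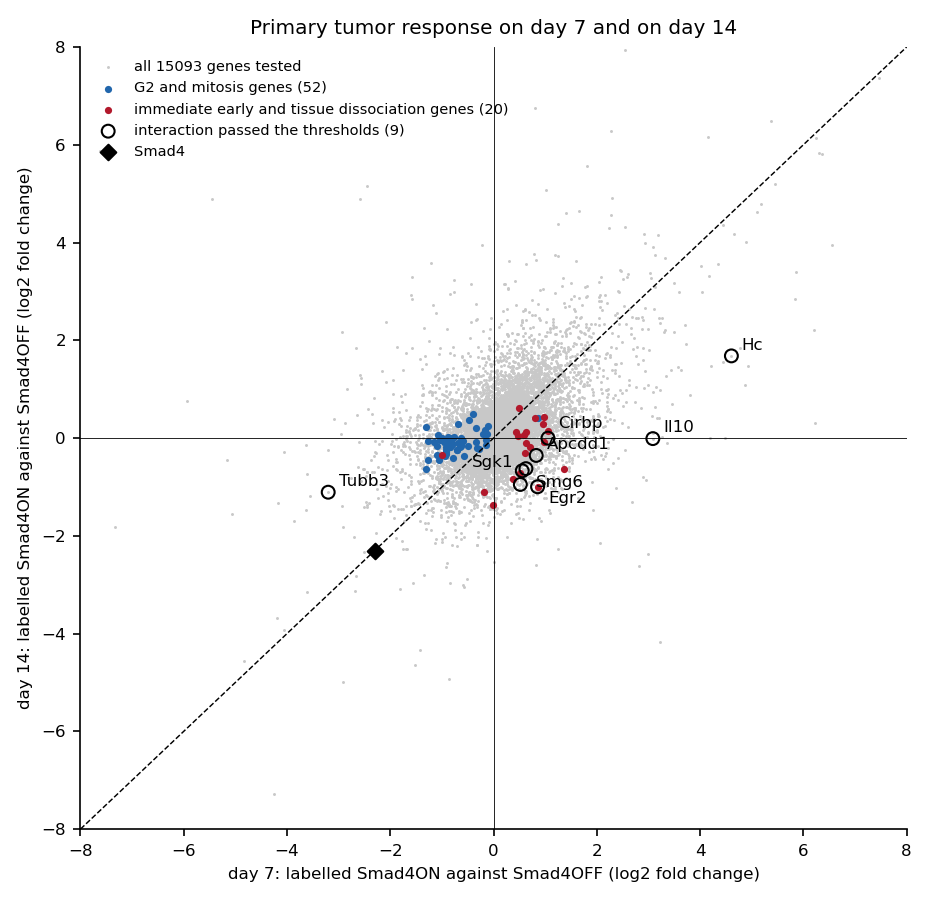
Log2 fold change of labelled on against labelled off on day 7 (horizontal axis) and day 14 (vertical axis) for each of the 15093 genes tested (3 genes outside the axes are not drawn), with the line of equal response dashed. The blue G2 and mitosis genes lie mostly left of 0 on day 7 and near 0 on day 14, the red immediate early genes lie mostly below the line, and *Smad4* lies on it at -2.30 and -2.31.

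The interaction also equals the change from day 7 to day 14 within labelled on minus that within labelled off. In the labelled-off libraries edgeR called 125 genes higher on day 14 (0.828%) and 43 lower (0.285%), and in the labelled-on libraries 36 higher (0.239%) and 21 lower (0.139%). The order of the arms rests on the day 14 OFF libraries. Without library 1 of that group it turned, with 10 higher and 8 lower in labelled off against 16 and 9 in labelled on. Without library 2 the counts were 12 and 7 against 10 and 4. DESeq2 called 196 and 81 in labelled off and 171 and 68 in labelled on. Whether the arms differ in this count was not tested. *Il10*, *Tubb3* and *Hc* were called between days in labelled off only, *Egr2* in labelled on only, and *Sgk1*, *Cirbp*, *Smg6* and *Apcdd1* in neither. The libraries of the 2 days come from different mice, so a change between days is a difference between mice and not a course within a mouse.

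In *Egr2*, *Sgk1* and *Smg6* the difference between labels turned around. *Egr2* encodes a zinc-finger transcription factor of the immediate early class, and it was measured at 44.7, 45.3 and 45.6 CPM in day 7 OFF, 90.5 and 72.8 CPM in day 7 ON, 83.3 and 79.3 CPM in day 14 OFF and 39.99, 48.1 and 34.1 CPM in day 14 ON. Both day 7 ON libraries lay above the 3 day 7 OFF libraries, all 3 day 14 ON libraries lay below both day 14 OFF libraries, and neither pair of groups overlapped. The response was 0.85 (adjusted P = 0.00623) on day 7 and -0.997 (adjusted P = 0.00383) on day 14 in log2, an interaction of -1.85 (SE 0.19, adjusted P = 0.0216), the lowest P value of all genes. Left-out libraries gave values from -2.02 to -1.72, and 8 of 10 such fits called the gene.

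*Sgk1* encodes a kinase induced by serum and glucocorticoids that regulates ion channels and transporters. Its levels were 88.7, 84.9 and 106 CPM in day 7 OFF, 139.9 and 134 CPM in day 7 ON, 135 and 144 CPM in day 14 OFF and 88.03, 89.8 and 85.7 CPM in day 14 ON, high in day 7 ON and day 14 OFF and low in the libraries of day 7 OFF and day 14 ON, with no overlap on either day. The *Sgk1* response was 0.56 (adjusted P = 0.00986) on day 7 and -0.67 (adjusted P = 0.00578) on day 14, and the interaction -1.22 (SE 0.14, adjusted P = 0.0216).

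*Smg6* is an endonuclease of nonsense-mediated mRNA decay. The 10 values were 112, 108 and 96.9 CPM in day 7 OFF, 165 and 161 CPM in day 7 ON, 175 and 169 CPM in day 14 OFF and 98.7, 104 and 132 CPM in day 14 ON, again with the day 7 ON and day 14 OFF libraries above all others. The response was 0.63 (adjusted P = 0.0129) on day 7 and -0.63 (adjusted P = 0.0150) on day 14, giving an interaction of -1.25 (SE 0.17, adjusted P = 0.0352). The gene spans *Srr* on the opposite strand, to which 2674 counts were assigned against 25156 for *Smg6*, and the strand setting of the counting is not stated, so a share of the signal could belong to the partner. None of these 3 genes reached a 2-fold difference on a single day, and all 3 had an adjusted P value under 0.05 on both days with opposite signs.

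Another 3 genes were higher in labelled-on libraries on day 7 and less so, or not, on day 14, and in each the day 7 OFF libraries were the lowest. *Il10*, an anti-inflammatory cytokine, was at 3.45, 2.62 and 2.17 CPM in day 7 OFF, 19.2 and 27.5 CPM in day 7 ON, 18.6 and 14.5 CPM in day 14 OFF and 11.9, 20.8 and 16.7 CPM in day 14 ON. All 3 day 7 OFF libraries were far below the other 7, which overlapped among themselves. The response was 3.08 (adjusted P = 4.63e-04) on day 7 and -0.012 (adjusted P = 0.984) on day 14, and the interaction was -3.10 (SE 0.38, adjusted P = 0.0305). Within labelled off, *Il10* rose between days by 2.59 (adjusted P = 0.00440), while the labelled-on change was -0.51 (adjusted P = 0.269). The summed level of 12 macrophage and monocyte markers was 249, 172 and 219 CPM in day 7 OFF and 193 to 388 CPM in the other 7 libraries, and the part of such cells in the *Il10* values was not tested.

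*Hc* encodes complement component C5, the precursor of the anaphylatoxin C5a. Its level was 0.417, 0.640 and 0.483 CPM in day 7 OFF, 12.9 and 12.5 CPM in day 7 ON, 3.47 and 2.19 CPM in day 14 OFF and 7.85, 8.43 and 10.9 CPM in day 14 ON. In the day 7 OFF libraries 3 counts represent 0.181, 0.168 and 0.177 CPM, so their values rest on few counts. The sizes of the day 7 response and of the interaction depend on these low values. The 4 groups did not overlap, in the order day 7 OFF, day 14 OFF, day 14 ON and day 7 ON. The response of *Hc* was positive on both days, 4.61 (adjusted P = 6.16e-05) on day 7 and 1.68 (adjusted P = 0.00713) on day 14, and it narrowed by an interaction of -2.93 (SE 0.39, adjusted P = 0.0352). *Cirbp*, an RNA-binding protein induced by mild cold and other stress, was at 30.1, 26.9 and 23.9 CPM in day 7 OFF, 57.98 and 53.9 CPM in day 7 ON, 47.4 and 47.1 CPM in day 14 OFF and 46.1, 47.3 and 48.1 CPM in day 14 ON. Its day 7 response was 1.05 (adjusted P = 5.71e-04), the day 14 groups overlapped with a difference of -0.0027 (adjusted P = 0.991), and the interaction was -1.06 (SE 0.14, adjusted P = 0.0352).

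*Apcdd1* encodes a membrane-bound antagonist of Wnt signaling and was at 44.8, 40.1 and 43.1 CPM in day 7 OFF, 74.7 and 76.6 CPM in day 7 ON, 52.1 and 56.2 CPM in day 14 OFF and 35.6, 44.7 and 46.7 CPM in day 14 ON. Both day 7 ON libraries were above the other 8. The day 7 response was 0.83 (adjusted P = 0.00338), the day 14 difference was -0.36 (adjusted P = 0.0913), and the interaction was -1.18 (SE 0.16, adjusted P = 0.0352). Between days the labelled-on libraries fell by 0.84 in log2 (adjusted P = 0.0210).

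*Tubb3*, a β-tubulin best known from neurons and also expressed by carcinomas, was the single gene whose response was higher on day 14. Its level was 82.1, 119 and 111 CPM in day 7 OFF, 9.98 and 12.6 CPM in day 7 ON, 36.4 and 41.1 CPM in day 14 OFF and 18.1, 20.5 and 15.3 CPM in day 14 ON. The labelled-off libraries exceeded the labelled-on libraries on both days, with no overlap, and the day 7 OFF libraries exceeded all others. The response was -3.20 (adjusted P = 6.16e-05) on day 7 and -1.11 (adjusted P = 0.00772) on day 14, so that the interaction of 2.09 (SE 0.26, adjusted P = 0.0307) is that of a smaller deficit on day 14. Within labelled off the gene fell between days by 1.42 in log2 (adjusted P = 0.00496), and within labelled on the change was 0.67 (adjusted P = 0.0832).

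**Figure D2:**
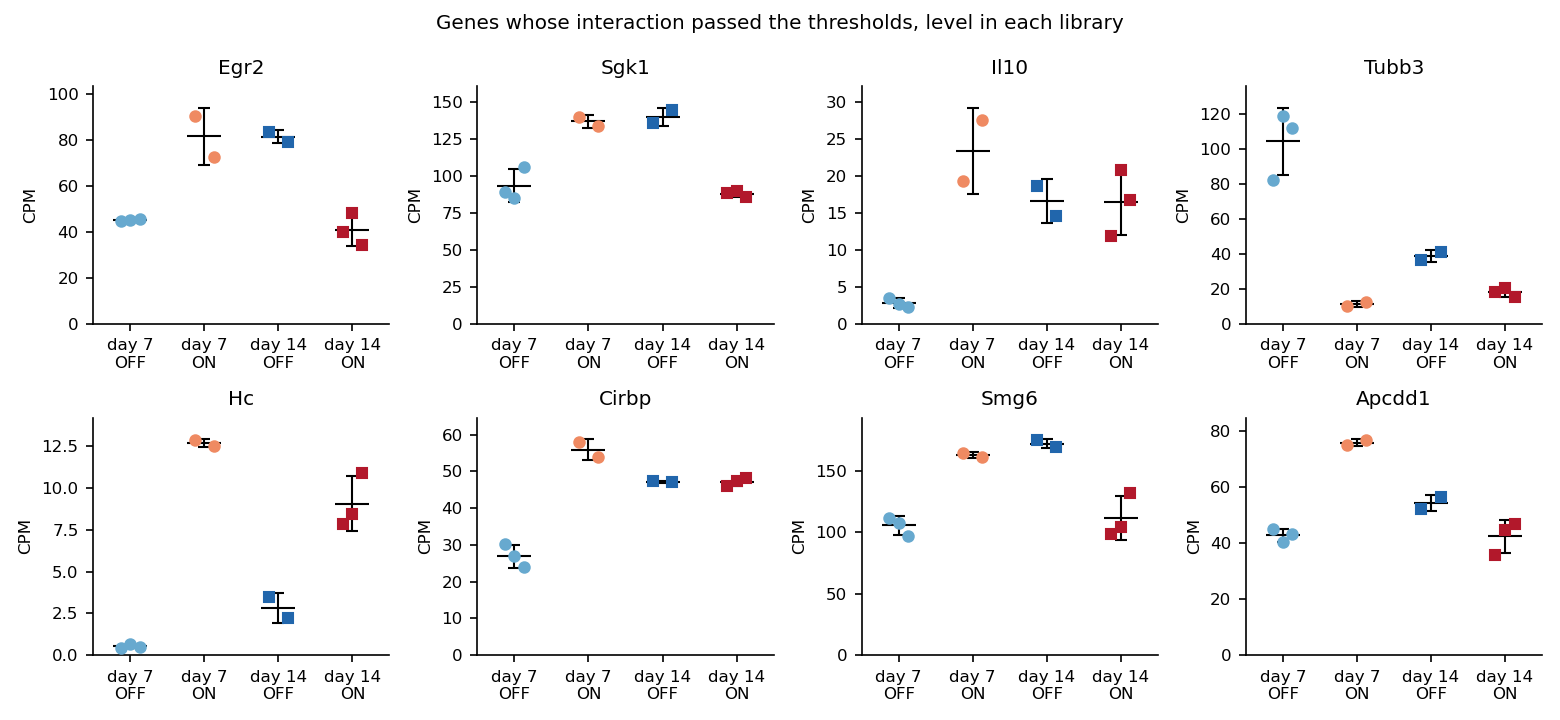
Level in CPM of 8 genes whose interaction passed both thresholds, with 1 point per library, the group mean as a horizontal line and the standard deviation as a bar, in the order day 7 OFF, day 7 ON, day 14 OFF and day 14 ON. *Egr2*, *Sgk1* and *Smg6* are higher in ON on day 7 and higher in OFF on day 14, *Il10*, *Hc* and *Cirbp* are lowest in day 7 OFF, and *Tubb3* is highest there.

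In GRCm38, *Egr2* lies at chr10:67535475-67542188, *Sgk1* at chr10:21882184-21999903, *Il10* at chr1:131019845-131024974, *Hc* at chr2:34983331-35061438, *Cirbp* at chr10:80165985-80172786, *Smg6* at chr11:74925823-75164448 and *Tubb3* at chr8:123411424-123422015, and *Apcdd1* is on chromosome 18.

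Genes of cell division lay almost all above 0. Cells express these genes in waves, those for DNA replication in S phase and those for spindle, kinetochore and cytokinesis in G2 and mitosis, so that their level in a sorted population follows the share of cycling cells. Of the G2 and mitosis genes, 51 of 52 tested had an interaction above 0, against 8210 of 15093 over all genes, and 27 had one at an unadjusted P value under 0.05 with 0 below 0. Their median interaction was 0.62, but 0 passed the thresholds. The exception in sign was *Psrc1*, at -0.45. DESeq2 called 4 of the 52 higher, namely *Cenpf*, *Kif11*, *Kif20b* and *Ttk*, against 0.377% of the genes it gave an adjusted P value. Members of a list share the same libraries, so such counts describe these 10 libraries, and in bulk RNA fewer cycling cells and less of each mRNA per cell cannot be told apart.

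In the single contrasts, of which the day 7 response and the labelled-off change share the day 7 OFF libraries, these libraries stood apart. On day 7, 30 of 52 genes were lower in labelled on at an adjusted P value under 0.05, against 5.72% of all genes, and 11 of them by more than 2-fold, against 0.841%. By day 14 within labelled off, 28 of 52 were lower at that threshold, against 5.1% of all genes. In contrast, 2 were lower and 1 higher in labelled-on libraries on day 14, where the backgrounds were 3.52% and 4.06%, and 0 were lower and 0 higher between days within labelled on, with backgrounds of 1.47% and 0.928%. In 43 of 52 genes all 3 day 7 OFF libraries exceeded the other 7, which 10.6% of all genes did. The summed level of the list, in CPM, was 4252, 4209 and 4382 in day 7 OFF, 2465 and 3038 in day 7 ON, 2939.6 and 2624 in day 14 OFF and 2834, 2473 and 2596 in day 14 ON.

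The promoters of some of these genes are shown because nearly all of the list had the same sign and its members are known to be driven through shared elements, the cell cycle homology region (CHR) and CCAAT boxes. Sequences are the 250 bases before and 50 bases after the start site from RefSeq (GRCm38.p6), 5′ to 3′ on the strand of the gene, with matches to TTTGAA, the CHR, and to CCAAT on either strand in capitals. *Tubb3*, the gene called higher, is added for comparison.
Kif20b (chr19:34922108-34922407, + strand): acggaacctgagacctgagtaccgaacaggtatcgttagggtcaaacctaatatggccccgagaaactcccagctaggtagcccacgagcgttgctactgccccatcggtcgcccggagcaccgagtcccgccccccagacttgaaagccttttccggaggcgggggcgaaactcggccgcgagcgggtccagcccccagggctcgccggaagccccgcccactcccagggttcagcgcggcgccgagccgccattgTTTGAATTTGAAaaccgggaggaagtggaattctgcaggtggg
Cenpf (chr1:189688037-189688336, - strand): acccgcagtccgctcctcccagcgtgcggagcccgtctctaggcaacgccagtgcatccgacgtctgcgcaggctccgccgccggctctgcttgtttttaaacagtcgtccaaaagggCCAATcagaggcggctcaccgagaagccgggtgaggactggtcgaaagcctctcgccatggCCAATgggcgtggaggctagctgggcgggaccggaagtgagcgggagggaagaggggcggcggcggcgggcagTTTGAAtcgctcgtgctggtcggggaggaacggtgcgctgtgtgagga
Kif23 (chr9:61946750-61947049, - strand): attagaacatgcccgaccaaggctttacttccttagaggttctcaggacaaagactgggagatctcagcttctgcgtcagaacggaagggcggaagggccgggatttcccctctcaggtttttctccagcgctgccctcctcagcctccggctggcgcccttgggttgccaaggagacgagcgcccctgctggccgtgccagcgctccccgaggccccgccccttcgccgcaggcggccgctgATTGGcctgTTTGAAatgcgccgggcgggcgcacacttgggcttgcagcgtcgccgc
Tubb3 (chr8:123411303-123411602, + strand): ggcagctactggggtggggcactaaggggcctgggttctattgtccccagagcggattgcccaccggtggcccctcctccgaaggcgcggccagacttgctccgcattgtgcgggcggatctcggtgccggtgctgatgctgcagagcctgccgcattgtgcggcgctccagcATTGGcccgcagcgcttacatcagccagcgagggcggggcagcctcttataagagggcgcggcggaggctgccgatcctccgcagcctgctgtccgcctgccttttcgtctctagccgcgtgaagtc
The CHR letters begin 7 and 13 bases from the start site in Kif20b, 2 in Cenpf and 2 in Kif23, and they are not in the *Tubb3* window.

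Of the 46 G2 and mitosis genes with a promoter window, 69.6% held TTTGAA on either strand, against 12.1% of the 10995 windows of all genes tested and 16.7% of the 30 of S-phase genes. CCAAT was in 76.1% of the G2 and mitosis windows, 70% of the S-phase windows and 38.3% of all windows. These 2 motifs were chosen after the values had been seen, and a match is a description of the letters, not of a bound site. For the genes called lower, 5 windows were found: the SMAD box CAGACA, its palindrome GTCTAGAC and the AP-1 motif TGACTCA were in 0 of 5 (16.1%, 0.218% and 3.94% of all windows), the RUNX motif TGTGGT in 1 (12.6%) and the KLF motif CCACCC in 3 (37.2%). TTTGAA and CCAAT were each in 2 of these 5 windows too, or 40%.

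*Kif20b*, a mitotic kinesin that acts in cytokinesis, was at 27.9, 24.7 and 22.2 CPM in day 7 OFF, 9.11 and 11.04 CPM in day 7 ON, 13.3 and 10.1 CPM in day 14 OFF and 13.3, 13.8 and 14.00 CPM in day 14 ON. Day 7 OFF exceeded the other 7 libraries, and the response of -1.30 (adjusted P = 0.00273) on day 7 was 0.23 (adjusted P = 0.420) on day 14. The interaction of 1.54 (SE 0.23, adjusted P = 0.0598) missed the threshold. *Knl1*, the scaffold of the outer kinetochore and not on the list, was at 25.96, 23.7 and 19.2 CPM in day 7 OFF, 6.23 and 8.16 CPM in day 7 ON, 9.27 and 8.36 CPM in day 14 OFF and 7.64, 9.20 and 8.47 CPM in day 14 ON, with an interaction of 1.61 (SE 0.26, adjusted P = 0.0693). Here too the day 7 OFF libraries stood alone, and between days within labelled off the change was -1.38 (adjusted P = 0.00575).

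*Mad2l1*, which encodes the spindle checkpoint protein MAD2 and is not on the list, was at 57.8, 53.1 and 63.3 CPM in day 7 OFF, 31.00 and 33.4 CPM in day 7 ON, 37.7 and 30.9 CPM in day 14 OFF and 39.6, 39.1 and 37.98 CPM in day 14 ON. Its interaction of 1.03 (SE 0.16, adjusted P = 0.0598) came with a day 7 response of -0.85 (adjusted P = 0.00303) and a day 14 difference of 0.18 (adjusted P = 0.345). *Cenpf*, a kinetochore protein of G2 and mitosis, was at 61.8, 56.5 and 65.5 CPM in day 7 OFF, 26.8 and 31.5 CPM in day 7 ON, 31.6 and 26.3 CPM in day 14 OFF and 34.2, 25.8 and 30.6 CPM in day 14 ON. The interaction was 1.13 (SE 0.20, adjusted P = 0.0803), and all 3 day 7 OFF libraries were again the highest. *Kif23*, the motor of the central spindle, was at 76.7, 72.9 and 77.4 CPM in day 7 OFF, 51.1 and 62.9 CPM in day 7 ON, 46.1 and 40.3 CPM in day 14 OFF and 65.5, 57.3 and 58.2 CPM in day 14 ON, with an interaction of 0.89 (SE 0.16, adjusted P = 0.0803). The proliferation marker *Mki67*, added after its values were seen, was at 306, 275 and 295 CPM in day 7 OFF, 121 and 169 CPM in day 7 ON, 157 and 139 CPM in day 14 OFF and 157, 133 and 155 CPM in day 14 ON, with a day 7 response of -1.01 (adjusted P = 0.00406), a day 14 difference of 0.0014 (adjusted P = 0.996) and an interaction of 1.01 (SE 0.20, adjusted P = 0.101).

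S-phase genes also lay mostly above 0, without a call. The interaction was above 0 in 38 of 42, at an unadjusted P value under 0.05 in 17 above 0 and 0 below, and the median was 0.45. On day 7, 19 of 42 were lower in labelled on at an adjusted P value under 0.05, against 5.72% of all genes. Within labelled off, 10 were lower on day 14, against 5.1%. *Mcm2*, a subunit of the replicative helicase, was at 117, 121 and 124 CPM in day 7 OFF, 76.5 and 75.1 CPM in day 7 ON, 107 and 102 CPM in day 14 OFF and 92.1, 98.3 and 91.9 CPM in day 14 ON, with an interaction of 0.52 (SE 0.11, adjusted P = 0.106). *Uhrf1*, which maintains DNA methylation after replication, gave 0.52 (SE 0.11, adjusted P = 0.111), and *Mcm5*, another helicase subunit, 0.80 (SE 0.19, adjusted P = 0.127). The summed S-phase level in CPM was 1997, 2018 and 1974 in day 7 OFF, 1287 and 1433 in day 7 ON, 1643 and 1505 in day 14 OFF and 1492, 1424 and 1391 in day 14 ON, so the day 7 OFF libraries were above the other 7. Leaving out any 1 library kept the list medians at 0.36 to 0.88 for G2 and mitosis, the lowest without day 7 ON library 1, and 0.37 to 0.51 for S phase.

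Immediate early genes, which cells induce within minutes of growth factor, stress or tissue dissociation signals, went the other way. Of the 20 on this list, which also holds heat-shock genes induced by cell isolation, 18 had an interaction below 0, 12 of them at an unadjusted P value under 0.05, and the median was -0.81 (-0.95 to -0.62 when 1 library was left out). *Egr2* was the 1 member called, and *Hsph1*, a heat-shock chaperone, was the 1 member above 0 at that P value, at 0.65. On day 7, 12 of 20 were higher in labelled on at an adjusted P value under 0.05, against 5.04% of all genes. The summed level in CPM was 14576, 11984 and 13463 in day 7 OFF, 23270.2 and 19165 in day 7 ON, 16165 and 18630.0 in day 14 OFF and 15474, 17522 and 16719.7 in day 14 ON. Both day 7 ON libraries had the highest sums, and in 6 of 20 genes all 3 day 7 OFF libraries were below the other 7, against 6.98% of all genes. DESeq2 called 5 of the 20 lower, *Fosb*, *Egr2*, *Egr3*, *Nr4a1* and *Dnajb1*, against 1.12% of the genes it gave an adjusted P value. How long each tumor was digested and sorted is not in the labels, and its part in these values was not tested.

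*Egr3*, a relative of *Egr2*, was at 49.6, 50.8 and 60.3 CPM in day 7 OFF, 91.2 and 61.8 CPM in day 7 ON, 65.9 and 62.6 CPM in day 14 OFF and 36.5, 39.9 and 40.98 CPM in day 14 ON. All 3 day 14 ON libraries were below the other 7, and the interaction was -1.23 (SE 0.21, adjusted P = 0.0788). *Nr4a1*, an orphan nuclear receptor induced early after stimulation and named here because DESeq2 called it, ranged widely, at 212, 156 and 334 CPM in day 7 OFF, 684 and 515 CPM in day 7 ON, 478 and 475 CPM in day 14 OFF and 217, 339.6 and 362 CPM in day 14 ON, with an interaction of -1.99 (SE 0.45, adjusted P = 0.135). *Egr1*, the founder of the family, gave -0.92 (SE 0.19, adjusted P = 0.106).

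Among the ligands, receptors and SMADs of the TGFβ family, interactions below 0 prevailed, with lower values in day 14 ON. Of the 26 genes tested of 27, 22 had an interaction below 0, 9 at an unadjusted P value under 0.05 with 0 above, and the median was -0.29 (-0.16 without day 14 OFF library 2). In this list 4 genes were called lower in labelled-on libraries on day 14, against 0.742% of all genes. Of the 26, 9 had an adjusted P value under 0.05 below 0 on that day, against 3.52%. The median response was 0.020 on day 7 and -0.41 on day 14. In 7 of 26 all 3 day 14 ON libraries were below the other 7, against 8.12% of all genes. *Smad4* itself counts among the genes lower on both days. DESeq2 called 4 lower for the interaction, against 1.12% of the genes it gave an adjusted P value. They were the ligands *Tgfb2*, *Inhba* and *Inhbb* and the latent TGFβ binding protein *Ltbp2*.

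*Inhba*, which encodes the subunit of activin A, was at 161, 148 and 176 CPM in day 7 OFF, 160.5 and 179 CPM in day 7 ON, 199 and 199.7 CPM in day 14 OFF and 87.3, 113 and 109 CPM in day 14 ON. The day 14 ON libraries were the lowest of all and the day 7 groups overlapped. Its response was 0.071 (adjusted P = 0.747) on day 7 and -0.95 (adjusted P = 0.00311) on day 14, with an interaction of -1.02 (SE 0.17, adjusted P = 0.0765). *Tgfb2*, a TGFβ ligand, was at 74.1, 74.1 and 64.3 CPM in day 7 OFF, 135 and 114 CPM in day 7 ON, 109.9 and 105 CPM in day 14 OFF and 49.3, 71.2 and 85.4 CPM in day 14 ON, and its difference between labels changed sign from 0.81 (adjusted P = 0.0271) to -0.65 (adjusted P = 0.0702), an interaction of -1.46 (SE 0.27, adjusted P = 0.0987). *Inhbb*, the subunit of activin B, gave -1.32 (SE 0.37, adjusted P = 0.184).

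Genes downstream of the pathway had no call. Of 26 feedback and direct target genes, 21 were below 0, with a median of -0.26. At an unadjusted P value under 0.05, 4 were below and 1 above 0, against 7.13% and 8.18% of all genes. *Id3*, an inhibitor of bHLH factors, gave -1.51 (SE 0.36, adjusted P = 0.149). The 7 genes that the study lists as a fibrogenic program of SMAD4, citing earlier work, and follows in the metastases of this series had 2 values above 0 and 5 below, a median of -0.20 and 0 calls. That median was -0.10 without day 7 OFF library 1, -0.12 without day 7 ON library 1, -0.33 without day 7 ON library 2 and -0.095 without day 14 ON library 1. *Col6a1* gave -1.06 (SE 0.29, adjusted P = 0.165), *Il11* 1.37 (SE 0.83, adjusted P = 0.468), *Has2* -0.14 (SE 0.24, adjusted P = 0.816), *Itga5* -0.20 (SE 0.20, adjusted P = 0.662), *Ccbe1* 0.42 (SE 0.44, adjusted P = 0.691) and *Wisp1* -0.63 (SE 0.39, adjusted P = 0.482). The other regulators that the study turns on were also without a call: *Cdkn1c*, a cyclin-dependent kinase inhibitor, at 0.026 (SE 0.36, adjusted P = 0.984), *Id1* at 0.31 (SE 0.27, adjusted P = 0.610), *Klf4* at -0.84 (SE 0.27, adjusted P = 0.206) and *Runx1* at -0.27 (SE 0.15, adjusted P = 0.416).

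**Figure D3:**
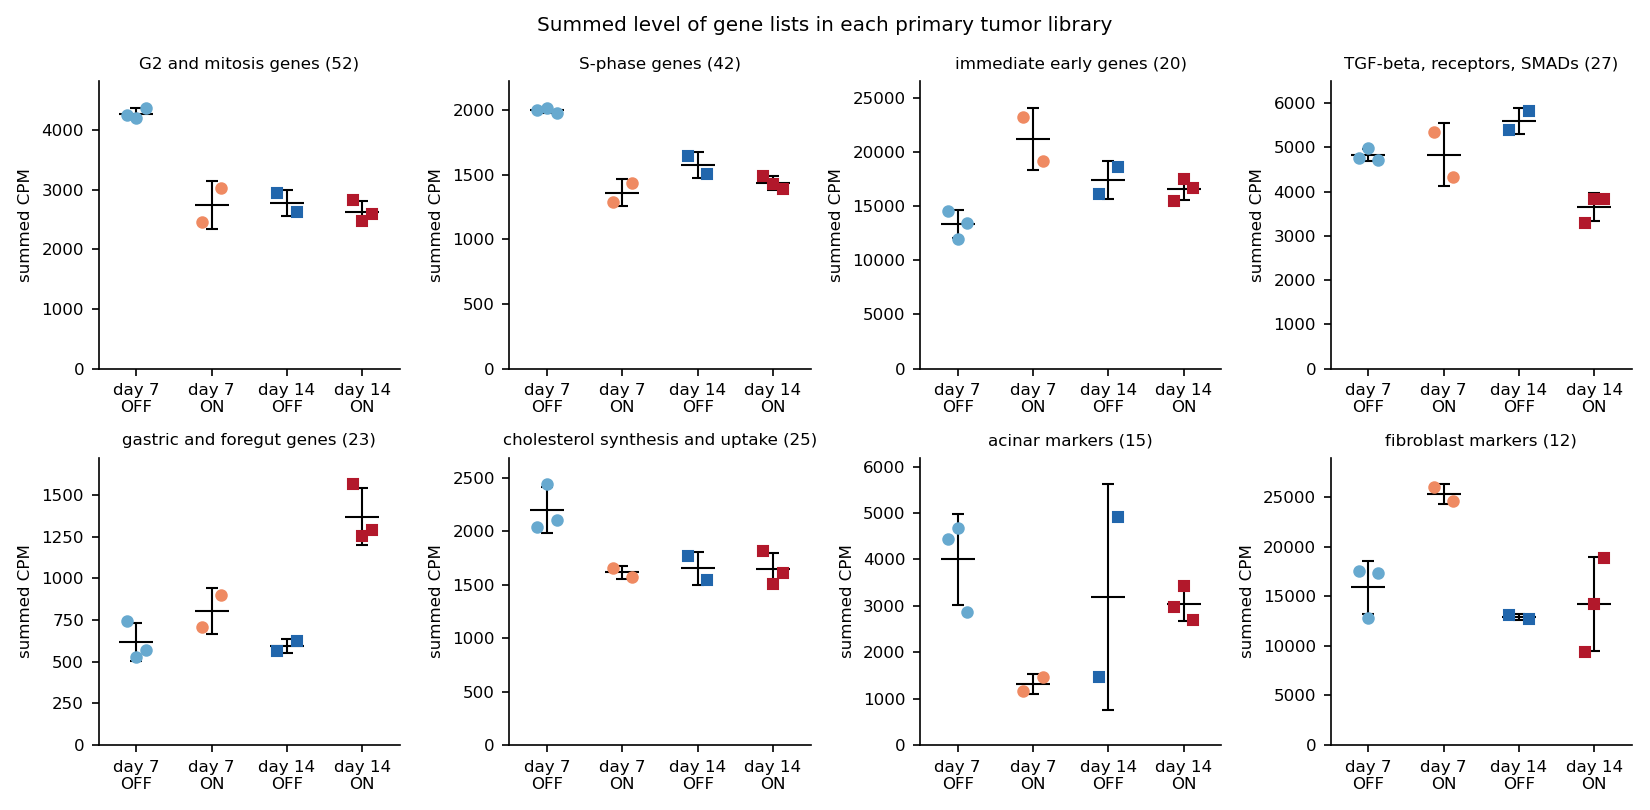
Summed level in CPM of 8 gene lists, with the number of genes in parentheses, 1 point per library and the group mean and standard deviation. The cell division and cholesterol sums are highest in day 7 OFF, the immediate early and fibroblast sums in day 7 ON, the gastric sum in day 14 ON, and the acinar sum of the day 14 OFF libraries spans 1469 and 4912 CPM.

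Gastric and foregut genes had the highest median interaction of the 28 lists with the labels as deposited (with exchanged labels it would be the lowest), 1.03, with 20 of 22 above 0 and 6 at an unadjusted P value under 0.05. Pancreatic precursor lesions often take on such a gastric type, with trefoil factors and mucins. Of these genes, 2 were called higher in labelled-on libraries on day 7, against 2.39% of all genes. On day 14 the count was 4, against 2.42%. Its median response was 0.23 on day 7 and 1.48 on day 14. The summed level in CPM was 746, 531 and 571 in day 7 OFF, 707 and 901 in day 7 ON, 567 and 623 in day 14 OFF and 1567, 1257 and 1291 in day 14 ON. In 10 of 22 genes the day 14 ON libraries exceeded the other 7, as 7.33% of all genes did. Without any 1 library the median was 0.89 to 1.29.

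*Tff2*, a trefoil factor secreted with gastric mucus, was at 37.9, 31.5 and 45.7 CPM in day 7 OFF, 147 and 121 CPM in day 7 ON, 54.4 and 54.6 CPM in day 14 OFF and 361, 438 and 427 CPM in day 14 ON. It rose with the label on both days, by 1.80 (adjusted P = 2.78e-04) and 2.91 (adjusted P = 3.75e-05), and within labelled on between days by 1.61 (adjusted P = 0.0160). The interaction of 1.103 (SE 0.22, adjusted P = 0.101) did not pass. *Pgc*, the pepsinogen C precursor, was at 1.31, 0.698 and 0.845 CPM in day 7 OFF, 1.87 and 0.507 CPM in day 7 ON, 0.255 and 0.354 CPM in day 14 OFF and 4.09, 3.71 and 3.72 CPM in day 14 ON, with its interaction of 3.32 (SE 0.75, adjusted P = 0.121) resting on low counts in 7 of the 10 libraries. *Tff1*, the main trefoil factor of the gastric surface, gave 2.96 (SE 1.00, adjusted P = 0.224). It held 177 counts over the 10 libraries, and an overlapping gene on the opposite strand held 187. As the strand setting is not stated, a share of the *Tff1* signal could belong to that gene. *Cftr*, the chloride and bicarbonate channel of pancreatic ducts and not on the list, was at 89.1, 57.6 and 59.1 CPM in day 7 OFF, 69.7 and 94.1 CPM in day 7 ON, 37.7 and 41.6 CPM in day 14 OFF and 162, 177 and 183 CPM in day 14 ON. Its day 14 ON libraries were the highest, the response was 0.26 (adjusted P = 0.426) on day 7 and 2.13 (adjusted P = 0.00159) on day 14, and the interaction was 1.88 (SE 0.28, adjusted P = 0.0652).

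Epithelial and mesenchymal identity genes had medians of opposite sign, with no call in either list. Of 19 epithelial and ductal genes 17 were above 0, with a median of 0.31 (0.14 without day 7 OFF library 1). At an unadjusted P value under 0.05, 2 were above and 1 below 0, against 8.18% and 7.13% of all genes. Of 20 EMT factors and mesenchymal genes 17 were below 0, with a median of -0.46. At that P value 4 were below 0, against 7.13% of all genes. In this list 8 were lower in labelled-on libraries on day 14 at an adjusted P value under 0.05, against 3.52% of all genes. In 12 of 20 the day 14 ON libraries were below the other 7, as in 8.12% of all genes. *Zeb1*, a repressor of epithelial genes, gave -0.85 (SE 0.21, adjusted P = 0.141), *Loxl2*, a collagen cross-linking oxidase, -0.70 (SE 0.19, adjusted P = 0.163), and *Esrp1*, a splicing regulator of epithelia, 1.93 (SE 0.50, adjusted P = 0.153).

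Stress and lipid genes lay above 0 with the cell division genes. ATF4 drives amino acid synthesis genes under stress, and the unfolded protein response expands the secretory capacity of the endoplasmic reticulum. Of 29 such genes 23 were above 0, 10 at an unadjusted P value under 0.05, and the median was 0.62. On day 7, 11 were lower in labelled on at an adjusted P value under 0.05, against 5.72% of all genes. *Asns*, asparagine synthetase, was at 68.8, 73.9 and 69.4 CPM in day 7 OFF, 36.6 and 34.3 CPM in day 7 ON, 64.05 and 54.8 CPM in day 14 OFF and 70.6, 53.6 and 58.4 CPM in day 14 ON. Both day 7 ON libraries were below all others, the response was -0.995 (adjusted P = 0.00238) on day 7 and 0.035 (adjusted P = 0.891) on day 14, and the interaction was 1.03 (SE 0.17, adjusted P = 0.0765). *Xbp1*, the transcription factor of the unfolded protein response, was highest in day 14 ON, at 197, 251 and 221 CPM in day 7 OFF, 200.4 and 208 CPM in day 7 ON, 192 and 196 CPM in day 14 OFF and 283, 312 and 285 CPM in day 14 ON, with an interaction of 0.72 (SE 0.15, adjusted P = 0.108). The death-associated factor *Ddit3* was the 1 member below 0 at an unadjusted P value under 0.05, at -0.62.

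Cholesterol synthesis and uptake genes were above 0 in 25 of 25, 10 at an unadjusted P value under 0.05, with a median of 0.43 (0.27 without day 14 OFF library 2) and 0 calls. At an adjusted P value under 0.05, 8 were lower in labelled-on libraries on day 7, against 5.72% of all genes. Within labelled off 4 were lower on day 14, against 5.1%. *Ppa1*, the cytosolic inorganic pyrophosphatase and not on the list, was at 87.7, 102 and 103 CPM in day 7 OFF, 56.2 and 50.2 CPM in day 7 ON, 82.1 and 71.9 CPM in day 14 OFF and 83.5, 72.5 and 79.04 CPM in day 14 ON. Its day 7 ON libraries were the lowest and the interaction was 0.90 (SE 0.15, adjusted P = 0.0781).

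Glycolysis and hypoxia genes lay below 0 in 28 of 34 (8 at an unadjusted P value under 0.05, median -0.23). Within labelled off, 7 of 34 rose from day 7 to day 14 by more than 2-fold, against 0.828% of all genes, and 12 had an adjusted P value under 0.05 above 0, against 3.74% of all genes. *Eno2*, the neuronal enolase that hypoxia also induces, was at 4.23, 7.80 and 5.80 CPM in day 7 OFF, 20.3 and 14.8 CPM in day 7 ON, 15.6 and 16.1 CPM in day 14 OFF and 8.87, 13.7 and 14.95 CPM in day 14 ON, with an interaction of -1.90 (SE 0.39, adjusted P = 0.101), lowest in day 7 OFF. The list median depended on single libraries, at -0.46 without day 7 ON library 1, -0.00062 without day 7 ON library 2, -0.38 without day 14 ON library 1 and -0.14 without day 14 ON library 3.

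Matrix genes lay mostly below 0, without a call. Of 47 collagens and matrix glycoproteins 36 were below 0, 10 at an unadjusted P value under 0.05, with a median of -0.54 (-0.35 without day 7 ON library 1 and -0.36 without day 14 ON library 1). *Lamc1*, the γ1 chain of laminins, gave -0.83 (SE 0.19, adjusted P = 0.121). Of 22 matrix proteases and inhibitors 14 were below 0 and 7 were so at an unadjusted P value under 0.05, with a median of -0.37 (-0.60 without day 7 OFF library 2). *Mmp14*, a membrane collagenase, gave -0.74 (SE 0.16, adjusted P = 0.108) and *Timp3*, a matrix-bound inhibitor, -1.59 (SE 0.36, adjusted P = 0.133), whereas *Plaur*, the urokinase receptor, was on the other side at 0.72 (SE 0.13, adjusted P = 0.0803). *Plaur* was at 183, 179.8 and 183 CPM in day 7 OFF, 128 and 129.8 CPM in day 7 ON, 158 and 161 CPM in day 14 OFF and 197, 197 and 167 CPM in day 14 ON, lowest in day 7 ON. Beside these values, the fibroblast markers differed between groups: their summed level in CPM was 17582, 12798 and 17351 in day 7 OFF, 26036 and 24582 in day 7 ON, 13161 and 12679 in day 14 OFF and 9436, 14271 and 18902 in day 14 ON, with both day 7 ON libraries above the other 8, and 10 of 12 had an interaction below 0. Their median was -0.70 (-0.43 without day 7 ON library 1 and -0.43 without day 14 ON library 1). The part of fibroblasts in the matrix values was not tested.

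Pathway lists other than TGFβ are described by their counts. Of 21 Wnt targets and antagonists, 12 were below 0 and the median was -0.49 (-0.24 without day 7 OFF library 1, -0.31 without day 7 OFF library 3 and -0.31 without day 14 ON library 1). *Axin2*, the feedback scaffold that reads out canonical Wnt signaling, was at 22.7, 27.98 and 22.2 CPM in day 7 OFF, 62.2 and 50.7 CPM in day 7 ON, 39.7 and 48.9 CPM in day 14 OFF and 27.9, 38.8 and 36.3 CPM in day 14 ON. Day 7 ON was highest, the day 7 response was 1.21 (adjusted P = 0.00337), the day 14 difference -0.37 (adjusted P = 0.207), and the interaction -1.58 (SE 0.23, adjusted P = 0.0541) was the one nearest the threshold of 0.05 among the genes named here that did not pass. Of 13 Hedgehog genes 10 were below 0, with a median of -0.68 (-0.31 without day 7 ON library 1). Of 24 RAS-MAPK output genes and EGF ligands 18 were below 0, with a median of -0.29 (-0.19 without day 14 ON library 3). *Egfr*, the EGF receptor, stood at 148, 147 and 142 CPM in day 7 OFF, 216 and 188 CPM in day 7 ON, 152 and 169 CPM in day 14 OFF and 136, 147 and 138 CPM in day 14 ON, highest in day 7 ON, with an interaction of -0.67 (SE 0.13, adjusted P = 0.101). *Gadd45a*, a stress and growth arrest gene, was at 106, 107 and 113 CPM in day 7 OFF, 117 and 109 CPM in day 7 ON, 226 and 240.2 CPM in day 14 OFF and 104, 152 and 136 CPM in day 14 ON, highest in day 14 OFF with a change within labelled off of 1.103 (adjusted P = 0.00496) and an interaction of -0.89 (SE 0.19, adjusted P = 0.108). It belongs to the 10 cyclin-dependent kinase inhibitors and cytostatic genes, of which 8 were below 0 (median -0.36).

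Of the remaining lists, 8 had medians between -0.017 and 0.19, where that of all genes was 0.042. They were 0.18 for 35 interferon-stimulated genes, 0.064 for 16 genes of MHC class I presentation, 0.19 for 28 chemokines and cytokines, 0.044 for 20 p53 targets, 0.024 for 37 genes of oxidative phosphorylation, 0.050 for 16 complement genes, 0.13 for 16 metallothioneins and metal transporters and -0.017 for 17 integrins. In the complement list 9 of 16 genes were above 0 and 7 below. Farther from that of all genes, KLF and RUNX factors had a median of -0.27 (-0.15 without day 7 OFF library 2), with 12 of 16 below 0. Smooth muscle contractile genes had one of -0.40, with 7 of 12 below 0. Leaving out 1 library moved it by over 1.5 times for 7 of the 10 libraries, to -0.22 without day 7 OFF library 1, -0.72 without day 7 OFF library 3, -0.10 without day 7 ON library 1, -0.60 without day 7 ON library 2, -0.15 without day 14 OFF library 1, -0.62 without day 14 OFF library 2 and -0.19 without day 14 ON library 1. When 1 library was left out, the sign of the median turned for interferon-stimulated genes, MHC class I presentation, chemokines, p53 targets, oxidative phosphorylation, complement genes and integrins.

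**Figure D4:**
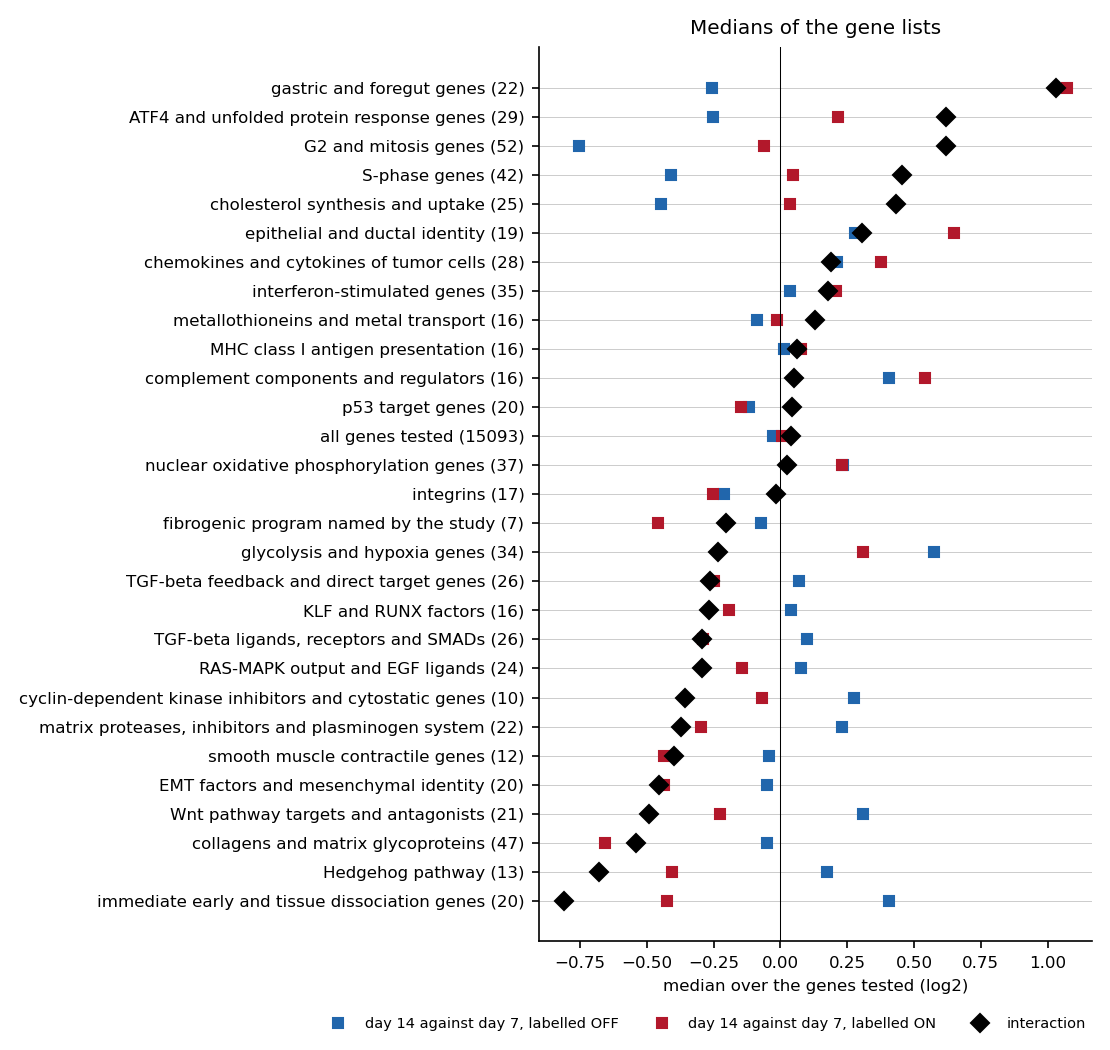
Median over the tested genes of each of 28 gene lists and of all genes, in log2, for the change from day 7 to day 14 within labelled off (blue), within labelled on (red) and the interaction (black), with the number of genes in parentheses. Gastric genes are at the top with 1.03 and immediate early genes at the bottom with -0.81, and for G2 and mitosis the labelled-off median of -0.75 is far from the labelled-on median of -0.061.

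Markers of other cells of the pancreas also differed between libraries. Acinar markers, digestive enzymes of the normal exocrine pancreas, had an interaction above 0 in 15 of 15 genes with a median of 1.51, but their summed level in CPM was 4444, 4679.7 and 2877 in day 7 OFF, 1163 and 1473 in day 7 ON, 1469 and 4912 in day 14 OFF and 2969, 3426 and 2698 in day 14 ON, so that the 2 day 14 OFF libraries lay far apart. Without 1 of these 2 the median was 0.84 or 2.81. Macrophage and monocyte markers were above 0 in 12 of 12, with a median of 0.62 (0.24 without day 14 OFF library 1 and 1.20 without day 14 OFF library 2) and sums of 249, 172 and 219 in day 7 OFF, 193 and 228 in day 7 ON, 204 and 331 in day 14 OFF and 332, 376 and 388 in day 14 ON. Endothelial markers were above 0 in 7 of 9, with a median of 1.11 (0.69 without day 7 ON library 2). With only genes at a mean CPM of at least 1 the median was 0.67. Their sums were 181, 409 and 261 in day 7 OFF, 169 and 307 in day 7 ON, 243 and 247 in day 14 OFF and 263, 148 and 172 in day 14 ON, so that the labels overlapped on both days. Erythroid markers had a median of 1.71 over 5 genes (1.12 without day 14 OFF library 1 and 2.65 without day 14 OFF library 2). Islet markers had one of 0.28 over 8, whose sign turned with 1 library left out, the values being 0.042 without day 7 OFF library 1, 0.18 without day 7 OFF library 2, 0.58 without day 7 OFF library 3, -0.10 without day 7 ON library 1, 1.54 without day 7 ON library 2, 0.77 without day 14 OFF library 2 and -0.064 without day 14 ON library 1. Lymphocyte markers had 3 of 12 genes with enough counts and neutrophil markers 3 of 7. Ductal carcinoma markers were above 0 in 9 of 10, with a median of 0.24 (0.11 without day 7 OFF library 1 and 0.14 without day 14 ON library 1). The part of acinar RNA in other values was not tested.

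Whether the difference between days was particular to the pancreas was tested in a fit of all 35 libraries, 11 from liver and 14 from lung metastases, over 17547 genes. The interaction in the pancreas minus that in the liver passed the thresholds for 0 genes (0%), with 1808 genes at an unadjusted P value under 0.05 and a lowest adjusted P value of 0.0647. Against the lung it was also 0 genes (0%), with 820 at an unadjusted P value under 0.05. DESeq2 called 66 and 1 genes. In that fit, which shares 1 estimate of spread over all organs, the pancreas interaction itself had 0 calls and 616 genes at an unadjusted P value under 0.05.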

How the data were processed

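The deposited values are raw counts per gene that the authors made from 75-bp single-end reads of poly(A)-selected RNA. Per the labels and the study's methods, reads were checked with FastQC 0.11.5, trimmed with Trimmomatic 0.36, aligned to GRCm38 (mm10) with STAR 2.5.3a and counted with featureCounts 1.6.3; the strand setting is not given in the sources used here. Columns of the 10 primary tumor libraries were matched to the labels by name; 0 columns stayed without a sample, and 0 libraries were identical. Totals were 12200163 to 32195795 counts, at which 3 counts equal 0.0932 to 0.246 CPM. Such a floor covers counting error only.

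Genes were filtered with filterByExpr by the 4 groups. It asks for the CPM of 10 counts at the median library size in as many libraries as the smallest group holds. It also asks for 15 counts in all. Genes kept were given TMM factors and modelled in edgeR 4.0.16 in R 4.3.3, with robust quasi-likelihood estimates and 6 residual degrees of freedom. One model held a mean for each group, and the interaction, the single-day responses and the changes between days were contrasts of it. P values were adjusted by Benjamini-Hochberg over all 15093 genes, and genes were called when they differed by more than 2-fold with an adjusted P value of less than 0.05. Standard errors were derived from the F statistic. CPM are TMM-scaled. The biological coefficient of variation was 0.174. The code was tested on simulated data.

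Named genes were *Smad4*, the genes with the lowest interaction P value in each direction (all called, filled to 8), the 3 lowest P values of each of 28 gene lists, and 11 genes the study turns on; any other gene named was chosen after its values were seen, as were the CHR and CCAAT motifs. Some genes that the rule covers are not reported here and stay in the counts. The comparison, members and lists were chosen with earlier results of these data known. Lists are described by counts and medians, with no set test. Alternatives were DESeq2 1.42.0, its size factors, other filters, no fold threshold, a replicate block, all 35 libraries in 1 fit, thinned counts and each library left out. Promoters were taken from RefSeq by symbol, with a window for 10995 of 15087 symbols, and searched on both strands with Python 3.11.15.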

Additional observations from a re-analysis of the deposited data

Results flagged for a closer look

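A difference between days in the response to the label, tested by the interaction itself, marked the following 8 genes. On the log2 scale the interaction was -1.85 for *Egr2*, -1.22 for *Sgk1*, -3.10 for *Il10*, -2.93 for *Hc*, -1.06 for *Cirbp*, -1.25 for *Smg6*, -1.18 for *Apcdd1* and 2.09 for *Tubb3*. For *Egr2*, *Sgk1* and *Smg6* the labels differed in opposite directions on the 2 days, for *Hc* and *Tubb3* in the same direction by different amounts, and for *Il10*, *Cirbp* and *Apcdd1* only day 7 had an adjusted P value under 0.05. Groups of 2 or 3 libraries were too small for a check of outlying libraries.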

How the results depend on the processing

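All 9 called genes kept the direction of their interaction under every alternative run. DESeq2 called 51 genes higher and 152 lower, including the 9, and all 203 had the same direction and an unadjusted P value under 0.05 in edgeR. Without a filter on low counts the numbers were 207 and 393, and 15 of these 600 calls were genes that the filter leaves out. Thinning all libraries to the smallest gave 2 higher. With the mouse number as a replicate block they were 0 and 1, and in a fit of all 35 libraries 0 and 0. Why these numbers differ was not tested. Same-numbered libraries deviated together at r of -0.11 and -0.21 on day 7 and 0.04 and 0.04 on day 14, but deviations within a group of 2 libraries mirror each other, so these r cannot show whether the number pairs the libraries, and no label says what it marks. The 1 gene called with the block, *Thy1*, named after its values were seen, is not among the 9. Leaving out each library gave 0 to 7 higher and 0 to 25 lower.

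The single-day and between-day numbers moved too. Without a filter they were 674 higher and 317 lower on day 7, 663 and 322 on day 14, 302 and 182 between days in labelled off, and 281 and 187 in labelled on. Without a fold threshold they were 760 and 863, 613 and 531, 565 and 769, and 140 and 222, in the same order. With the block they were 24 and 5, 23 and 3, 0 and 0, and 0 and 0, and with all 35 libraries 38 and 4, 15 and 1, 0 and 0, and 0 and 0. DESeq2 called 483 higher and 203 lower on day 7, 524 and 174 on day 14, 196 and 81 in labelled off, and 171 and 68 in labelled on. Leaving out each library gave 169 to 422 higher and 45 to 160 lower on day 7, 41 to 410 and 15 to 146 on day 14, 10 to 151 and 7 to 94 in labelled off, and 0 to 70 and 0 to 45 in labelled on. The lowest values came without a day 7 ON library on day 7, without a day 14 OFF library on day 14 and in labelled off, and without day 7 ON library 1 or day 14 ON library 2 in labelled on.

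Interactions near 0 changed sign. *Smad4* was at 0.044 with the block, at 0.083 with thinned counts and at -0.11 to 0.063 with a library left out. *Cdkn1c* was at -0.049 without a filter, -0.098 with the block, -0.0013 with all 35 libraries and -0.10 to 0.22 with a library left out, and *Has2* at -0.26 to 0.032. The pancreas-minus-liver difference had 66 calls with DESeq2 and 1 without the liver library labelled paired-end, and the pancreas-minus-lung difference 1 with DESeq2.

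With 2 or 3 libraries a group, 1 library decides how many genes pass. Low genes such as *Pgc* and *Tff1* rest on few counts, as does *Hc* in day 7 OFF.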
